A study of Mus musculus with 7 samples.

Results

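MOL5/6a was 1 of 4 subclusters of mature oligodendrocytes (MOLs) of the MOL5/6 type, which were found by the authors in droplet-based single-cell RNA sequencing of oligodendrocyte lineage cells (OLCs) from adult mouse forebrain. Its members were taken from the deposited cell annotation, which placed 1470 of 9291 kept cells in it. Of these, 333 came from the library of control dOLCs, 237 from control vOLCs and 900 from ectopic vOLCs. Control dOLCs were TdTom+ cells of dorsal origin from Emx1-Cre:Sox10-GFP-TdTom mice, and control vOLCs were GFP+ cells of ventral origin sorted from the same mice. Ectopic vOLCs were GFP+ cells from mice that carried in addition Sox10-GFP-DTA, in which the dorsal lineage is ablated. All mice were P90, on a C57BL/6-B6CBA mixed background, and carried Emx1-Cre and the Sox10 dual reporter. Emx1-Cre is active in dorsal forebrain progenitors, the reporter turns from GFP to TdTom after Cre recombination, and DTA is made in recombined cells of the Sox10-expressing lineage, so a cell that escaped recombination is counted as ventral. The labels name motor and cingulate cortex as the tissue, whereas the study's methods speak of neocortices and of dissection of the corpus callosum, so which of these the cells came from is uncertain. The 4 control and 2 ablated mice were pooled and are not told apart in the files. Each group was therefore 1 library, no test between groups was possible, and every interval below is a 95% exact interval that covers counting error only and not the spread between mice.

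Oligodendrocytes make myelin, the stacked membrane that wraps axons, and to do so they pass large amounts of protein and lipid through the endoplasmic reticulum (ER), the Golgi and the endolysosomal system. Mature oligodendrocytes fall into several transcriptional types that take different shares of grey and white matter, and MOL5/6 is the most frequent mature type of adult cortex. Ptgds, the enzyme that makes prostaglandin D2, Il33, a nuclear cytokine released on damage, Car2, a cytosolic carbonic anhydrase, and Grm3, a metabotropic glutamate receptor, served as markers of the type.

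The libraries held 23078181, 4846391 and 14293675 unique molecular identifiers (UMIs) in kept cells of control dOLCs, control vOLCs and ectopic vOLCs, an order that is used for every set of 3 values below. MOL5/6a cells held 1335886, 1332297 and 4087063 of them, with a median of 3910, 5584 and 4391 UMIs and of 1550, 1981 and 1573.5 genes per cell. The median share of mitochondrial UMIs per cell was 6.68%, 6.73% and 8.73%, so that the ectopic cells of MOL5/6a held the highest share of the 3. Of 9291 cells, 39 barcodes were shared between pairs of libraries, 3 of them within MOL5/6a. Per the labels, animals of either sex were used. Within MOL5/6a, Xist was present at 963, 783 and 1120 UMIs per 1000000 UMIs of the same cells (CPM), while the Y-linked genes Ddx3y, Eif2s3y, Kdm5d and Uty had 0 UMIs in each library.

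Of the 4 markers, Ptgds, Il33 and Car2 were at or near their highest level in MOL5/6a, and Grm3 was not. Ptgds was at 39018, 48347 and 40327 CPM in MOL5/6a, the highest level among the 11 annotated clusters in each library, with a median of 139, 256 and 167 UMIs per cell. In oligodendrocyte precursors (OPCs) it was at 5773, 3595 and 3367 CPM. Il33 was at 825, 736 and 1149 CPM and ranked behind MOL5/6d alone, where it was at 839, 834 and 1159 CPM. Both subclusters thus shared the highest Il33 levels in each library. Car2 was at 6912, 8183 and 6718 CPM and ranked between the first and the third of the clusters. Grm3 was at 76.4, 77.3 and 73.2 CPM and held only the ranks 8, 7 and 5 of the 11 clusters, behind MOL5/6b in the control dOLCs and in the ectopic vOLCs and behind MFOLb in the control vOLCs. Grm3 therefore did not set MOL5/6a apart from the other clusters. Since the clusters were built on these genes, the ranks are a description and no test.

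Markers of other cell types were close to absent. The microglial genes Csf1r, P2ry12 and Tmem119 had 0 UMIs in each library, and all 6 microglial markers summed to between 0 and 1.5 CPM. Endothelial and mural markers summed to 4.49, 10.5 and 2.20 CPM, with Flt1 and Vtn at 0. The 7 neuronal markers summed to 24.0, 11.3 and 18.8 CPM, and haemoglobin genes to 12.0, 19.5 and 18.1 CPM. The 6 astrocyte markers summed to 239, 239 and 293 CPM, of which Aldoc, Slc1a2 and Slc1a3 made up nearly all, while the astrocyte-defining genes Gfap, Aqp4 and Gja1 had at most 4, 13 and 15 UMIs in a library. Markers of OPCs summed to 142, 96.1 and 96.9 CPM and those of committed and newly formed oligodendrocytes to 131, 93.8 and 69.0 CPM, with the receptor gene Casr at 0. MOL1 markers summed to 62.1, 83.3 and 68.0 CPM and MOL2 markers to 106, 137 and 111 CPM. The order of these small sums differed from type to type, and their part in the results was not tested. Markers of myelin-forming oligodendrocytes (MFOLs) were not low, with sums of 2266, 1877 and 2149 CPM, mostly from Opalin at 2178, 1786 and 2061 CPM. These sums were above those of MOL5/6b and MOL5/6c in each library, and in the ectopic vOLCs below the 2284 CPM of MOL5/6d.

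The share of a library that fell in MOL5/6a was lowest in control dOLCs. In the order given it was 5.74% (5.15 to 6.37), 25.6% (22.8 to 28.6) and 35.1% (33.3 to 37.0), with Clopper-Pearson intervals. The 3 intervals did not overlap. Among cells with at most 10% mitochondrial UMIs, however, the shares were 6.34% (5.68 to 7.05), 28.2% (25.2 to 31.4) and 29.6% (27.7 to 31.5), so the intervals of control vOLCs and ectopic vOLCs overlapped and only the control dOLCs stood apart. Within MOL5/6 cells alone, MOL5/6a took 8.82% (7.93 to 9.77), 42.2% (38.1 to 46.5) and 48.9% (46.6 to 51.2), where the intervals of the ventral libraries nearly touched. MOL5/6b, the subcluster closest to MOL5/6a in ribosomal content, took 33.5%, 25.5% and 1.64% of the libraries. Taken as 1 population, MOL5/6a and MOL5/6b made up 39.3%, 51.1% and 36.8%, so the excess of MOL5/6a over the control dOLCs was not seen for the sum in the ectopic vOLCs. MOL5/6c and MOL5/6d together made up 25.8%, 9.51% and 35.1%. All MOL5/6 cells were 65.1%, 60.6% and 71.9% of the libraries. The sort, the depth of the libraries and the genes that differ between the libraries bear on where a cell is placed, and their part in these shares was not tested.

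**Figure D1:**
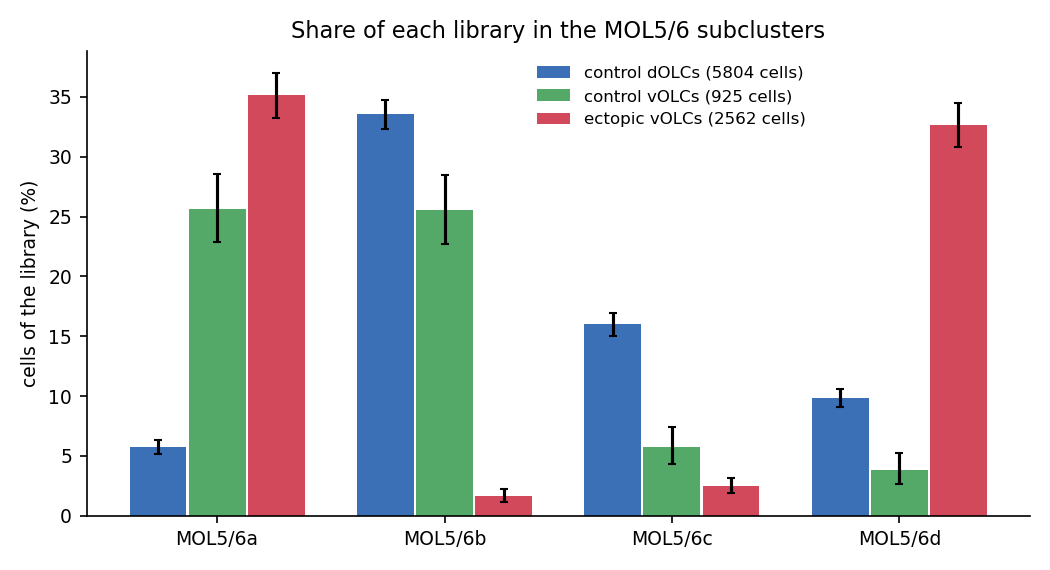
Share of the cells of each library (y axis, %) in the 4 MOL5/6 subclusters (x axis) for control dOLCs, control vOLCs and ectopic vOLCs. Bars are shares and error bars are 95% Clopper-Pearson intervals, which cover counting error only. MOL5/6a holds 5.74% of control dOLCs against 25.6% and 35.1% of the ventral libraries, and MOL5/6b only 1.64% of the ectopic vOLCs.

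To find what marked MOL5/6a in each library, its summed UMIs were compared with those of the other MOL5/6 cells of the same library, as log2 ratios of CPM. By number, the other cells were mostly MOL5/6b in the control dOLCs and control vOLCs and mostly MOL5/6d in the ectopic vOLCs. In the control dOLCs, however, MOL5/6b held 5899764 UMIs beside 4126918 in MOL5/6c and 3476983 in MOL5/6d. Each comparison was therefore repeated against single subclusters. Of 5842 genes with at least 50 UMIs in every library, 0 (0%) were at least 2-fold higher in MOL5/6a in all 3 libraries and 13 (0.223%) were at least 2-fold lower. The limit applies to both sides together, and in control dOLCs the other MOL5/6 cells held many more UMIs than MOL5/6a, so genes low in MOL5/6a pass it more easily than genes high there, and the counts of the 2 directions cannot be set against each other. At any size, 1032 genes were higher and 2258 lower in all 3, and the median over all genes was -0.14, -0.08 and -0.16.

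Ranked by the ratio nearest 0 of the 3 libraries, the highest gene was Atp6ap2, an accessory subunit of the vacuolar proton pump that acidifies endosomes and lysosomes. It was at 325, 324 and 350 CPM in MOL5/6a and at 177, 183 and 183 CPM in the other MOL5/6 cells, with log2 ratios of 0.88, 0.82 and 0.93. Its level was close to equal in the 3 libraries on both sides of the comparison. Lamp1, an abundant glycoprotein of the lysosomal membrane, was at 2474, 2512 and 2738 CPM against 1545, 1599 and 1612 CPM, which gave ratios of 0.68, 0.65 and 0.76. Qpct, which closes N-terminal glutamine in secreted proteins, had ratios of 0.76, 0.67 and 0.78.

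Tmx2 and Erp44, thioredoxin-like proteins of the ER, had ratios of 0.76, 0.65 and 0.70 and of 0.84, 0.80 and 0.65. Tmem33, an ER membrane protein, had 0.68, 0.63 and 0.65, and the ER chloride channel Clcc1 had 0.64, 0.84 and 0.77. B4gat1, which extends the sugar chain of dystroglycan, was at 174, 145 and 184 CPM against 98.6, 90.7 and 106 CPM. All 3 libraries had ratios of like size for these genes. Msmo1, a demethylating enzyme of cholesterol synthesis that sits in the ER membrane, was at 279, 237 and 313 CPM against 156, 154 and 193 CPM. Cyp20a1, a cytochrome P450 without a known substrate, was at 113, 104 and 118 CPM against 67.4, 62.4 and 64.1 CPM.

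The stretches before the starts of Lamp1 and Atp6ap2 are shown because these 2 genes of the lysosomal group are described above and differ in the short elements in front of them. Each is the 250 bases before the RefSeq start on GRCm38.p6, on the + strand, at chr8:13158911-13159160 for Lamp1 and chrX:12587509-12587758 for Atp6ap2. Capitals mark TCACGTG, the core of the CLEAR element bound by the lysosomal regulator TFEB and its relatives, in Lamp1, and CCAAT in Atp6ap2, both on either strand, where CACGTGA and ATTGG are the same letters read from the other strand.
Lamp1: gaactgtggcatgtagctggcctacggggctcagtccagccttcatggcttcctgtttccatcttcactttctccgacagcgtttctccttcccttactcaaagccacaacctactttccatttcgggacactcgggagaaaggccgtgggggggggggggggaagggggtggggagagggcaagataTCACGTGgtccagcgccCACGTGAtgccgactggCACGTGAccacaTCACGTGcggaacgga
Atp6ap2: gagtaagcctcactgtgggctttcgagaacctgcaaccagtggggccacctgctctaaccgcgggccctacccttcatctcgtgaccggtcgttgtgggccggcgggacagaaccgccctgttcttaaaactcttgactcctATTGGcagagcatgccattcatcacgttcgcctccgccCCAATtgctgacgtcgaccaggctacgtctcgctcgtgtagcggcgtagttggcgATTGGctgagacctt
Lamp1 held 4 matches to TCACGTG and no match to CCAAT, and Atp6ap2 held 3 matches to CCAAT and none to TCACGTG. Over the 21959 such windows of 17999 genes of the table, TCACGTG was found in 3.62% and CCAAT in 34.7%. Of the lysosomal genes, 3 of 15 windows held TCACGTG, those of Lamp1, Ctsd and Gaa, and 3 of 15 cholesterol, 3 of 30 ER, 5 of 67 ribosomal and 0 of 13 myelin windows did. CCAAT was found in 6 of 15 lysosomal, 22 of 30 ER, 13 of 15 cholesterol, 19 of 67 ribosomal and 4 of 13 myelin windows. A match describes these letters only and is not evidence of binding.

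The lysosomal genes as a group stood above the other MOL5/6 cells. This list of 18 genes, like those of ER, ribosome, translation, proteasome and oxidative phosphorylation, was drawn up after values of these data had been seen, so its direction is a description. Genes named here for a list, other than the member with most UMIs and those with the highest or lowest ratio to control dOLCs, were chosen after their values were seen. Against the other MOL5/6 cells, 14 of 18 were higher and 0 lower in all 3 libraries, with medians of 0.48, 0.24 and 0.57 beside -0.14, -0.08 and -0.16 over all genes. Lamp2, a second membrane glycoprotein, had ratios of 0.78, 0.62 and 0.85, and the hydrolases Ctsd and Hexa had 0.55, 0.27 and 0.84 and 0.60, 0.25 and 0.70. The other 4, Npc1, Scarb2, Gaa and Tpp1, were of mixed sign, and Npc1, which exports cholesterol from lysosomes, had -0.31, -0.64 and 0.16. The group held up against single subclusters, with 15 higher and 0 lower against MOL5/6d and 11 higher and 2 lower against MOL5/6b. Its summed UMIs were 0.911%, 0.811% and 0.919% of all UMIs in MOL5/6a, 0.735%, 0.722% and 0.764% in MOL5/6b and 0.644%, 0.555% and 0.603% in MOL5/6d.

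Genes of translocation, folding and glycosylation in the ER went the same way with more exceptions. Of 30 genes, 18 were higher and 4 lower in all 3 libraries, with medians of 0.36, 0.25 and 0.40. The chaperones Hspa5 and Calr had ratios of 0.43, 0.45 and 0.98 and of 0.45, 0.30 and 0.88. The disulfide isomerase Pdia4 had 0.67, 0.33 and 1.00, and the co-chaperone Dnajb9 had 1.00, 0.62 and 0.58. The small subunits of the translocon went against the group. Sec61b had -0.44, -0.85 and -1.44 and Sec61g had -0.76, -0.53 and -1.37. The group was 0.648%, 0.575% and 0.612% of UMIs in MOL5/6a and 0.502%, 0.437% and 0.470% in MOL5/6d, and 20 of its 27 compared genes were higher in all 3 libraries against MOL5/6d. Against MOL5/6b 14 of 30 were higher and 6 lower, with medians of 0.23, 0.04 and 0.04, beside 1171 higher and 1414 lower of all 5031 genes.

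Cytoplasmic ribosomal proteins were lower in MOL5/6a than in the other MOL5/6 cells in all 3 libraries for 76 of 77 genes and higher for 0. The medians were -0.68, -0.41 and -1.22. Rps3a1, of the small subunit, had ratios of -0.88, -0.42 and -1.31. The difference was between pairs of subclusters. Against MOL5/6c and MOL5/6d, 77 of 77 were lower in all 3 libraries, with medians of -0.96, -0.81 and -1.16 and of -1.04, -0.98 and -1.25, whereas against MOL5/6b 29 were lower and 3 higher, with medians of -0.14, 0.01 and -0.15. Ribosomal proteins made up 3.46%, 3.66% and 3.17% of UMIs in MOL5/6a and 3.8%, 3.65% and 3.58% in MOL5/6b. In MOL5/6c they made up 6.51%, 6.29% and 6.54%, and in MOL5/6d 6.84%, 7.0% and 6.94%. In each library these summed shares were lower in MOL5/6a and MOL5/6b than in MOL5/6c and MOL5/6d. Single cells overlapped, as in control dOLCs they held 2.21 to 7.41% in MOL5/6a and 3.79 to 17.7% in MOL5/6c. Tpt1, which encodes the translationally controlled tumour protein, had ratios of -0.75, -0.46 and -1.60.

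Transcripts of the mitochondrial genome differed with the subcluster compared. Against all other MOL5/6 cells 1 of 13 was higher and 0 lower in all 3 libraries, with medians of 0.04, -0.06 and 0.78. All 12 compared genes were higher in MOL5/6a than in MOL5/6d in all 3 libraries, with medians of 0.69, 0.64 and 0.88, and mt-Atp6, a subunit of ATP synthase, had 0.74, 0.71 and 0.98. Against MOL5/6b, 11 of 13 were lower and 0 higher, with medians of -0.33, -0.33 and -0.20. They took 6.79%, 6.62% and 8.67% of UMIs in MOL5/6a, 8.59%, 8.34% and 10.2% in MOL5/6b and 4.15%, 4.25% and 4.59% in MOL5/6d, so MOL5/6a lay between the 2 in each library. Of 75 nuclear genes of oxidative phosphorylation, 55 were lower and 8 higher than in MOL5/6d in all 3 libraries, with medians of -0.58, -0.43 and -0.76. Against MOL5/6b 27 were higher and 6 lower, beside 1171 and 1414 of all 5031 genes, and the rest were of mixed sign, with medians of 0.11, 0.13 and 0.01. Since CPM are shares of a total, a higher share of 1 group lowers the rest.

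**Figure D2:**
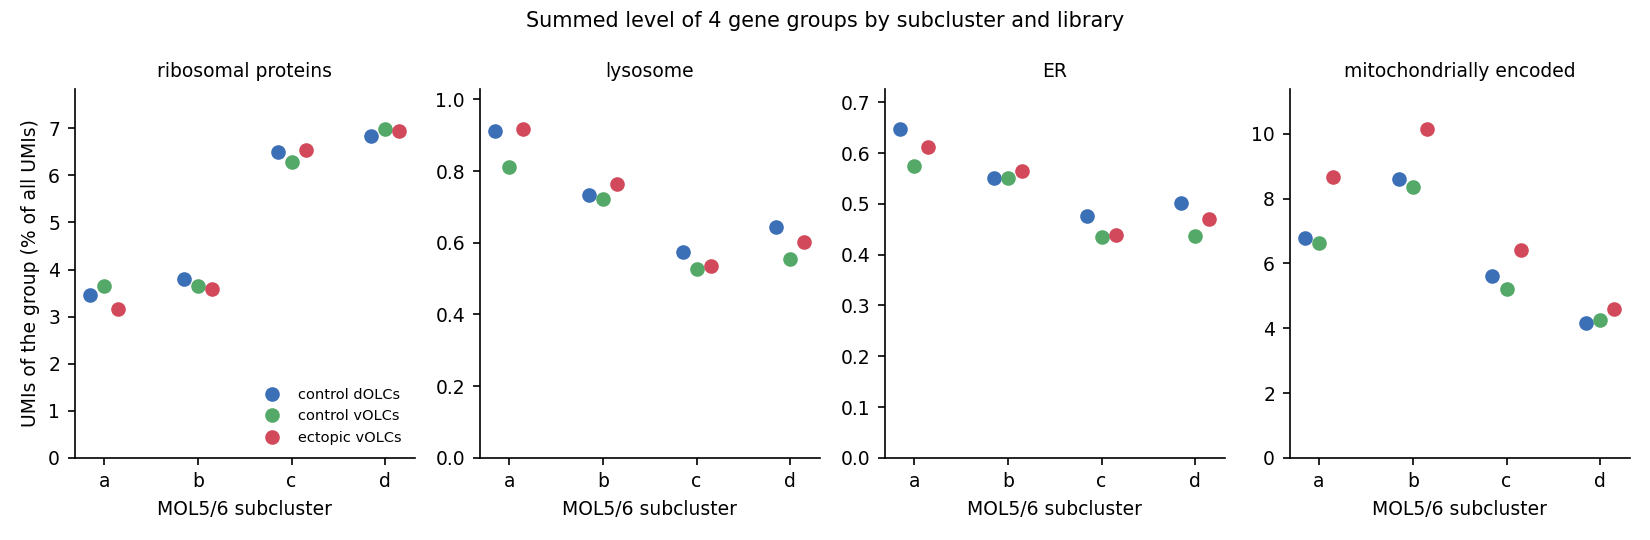
Summed UMIs of 4 gene groups (y axis of each panel, % of all UMIs of the cells, starting at 0) in the MOL5/6 subclusters a to d (x axis), 1 point per library. Ribosomal proteins are between 3.17% and 3.66% in MOL5/6a and above 6% in MOL5/6c and MOL5/6d, while the lysosomal and ER groups are highest in MOL5/6a in each library and mitochondrially encoded genes are highest in MOL5/6b.

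Proteins of compact and outer myelin were somewhat higher in MOL5/6a, with 8 of 13 higher and 2 lower in all 3 libraries. The medians were 0.30, 0.10 and 0.08. Cldn11, the tight junction protein of the myelin sheath, had ratios of 0.67, 0.41 and 0.43, and the adhesion and surface proteins Mag and Mog had 0.49, 0.34 and 0.90 and 0.53, 0.34 and 0.33. The exceptions were Mobp, a basic protein of compact myelin, with -0.41, -0.20 and -0.78, and the tetraspanin Tspan2 with -0.48, -0.72 and -0.69. Myelin genes were 7.97%, 7.76% and 8.11% of UMIs in MOL5/6a, above the 6.50%, 6.98% and 6.52% of MOL5/6b and the 6.97%, 7.15% and 7.41% of MOL5/6d.

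Enzymes of membrane lipids differed from list to list. Of the sphingolipid and galactolipid genes, 10 of 12 were higher and 0 lower than in MOL5/6d in all 3 libraries, and 7 of 15 were higher and 3 lower against all other MOL5/6 cells. Against MOL5/6b 6 of 15 were higher and 3 lower, with medians of 0.13, -0.04 and 0.13. Cers2, the synthase of very long chain ceramides, had ratios of 0.82, 0.51 and 0.70 against all others and Degs1, the ceramide desaturase, 0.76, 0.60 and 0.78. Of the cholesterol genes, 8 of 18 were higher and 2 lower against all others, with medians of 0.32, 0.00 and 0.27, 6 of 16 higher and 3 lower against MOL5/6b, and 11 of 13 higher and 0 lower against MOL5/6d, where 928 of all 3897 genes were higher and 1564 lower. Among them, the late enzymes Dhcr7 and Sc5d had 0.73, 0.31 and 0.66 and 0.74, 0.43 and 0.77 against all others. Of 12 fatty acid synthesis genes, 3 were higher and 4 lower against all others in all 3 libraries, 2 higher and 5 lower against MOL5/6b, and 6 higher and 1 lower against MOL5/6d. The elongases Elovl1 and Elovl5 were among the 3, with 0.77, 0.47 and 0.78 and with 0.65, 0.44 and 0.97. Fasn, the fatty acid synthase itself, and the desaturase Scd2 were lower than in MOL5/6b, with -0.92, -0.92 and -1.14 and with -0.68, -0.87 and -0.98.

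Microtubule-associated proteins were the list of the cytoskeleton that stood lowest. Of 11 genes, 10 were lower and 1 higher than in the other MOL5/6 cells in all 3 libraries, with medians of -0.62, -0.50 and -0.37. Of all 5842 genes, 2258 were lower. Against MOL5/6b 6 of the 11 were lower and 1 higher, against MOL5/6c 10 and 1, and against MOL5/6d 8 and 1. The medians against MOL5/6d were -0.17, -0.37 and -0.36. Tppp, which nucleates microtubules at Golgi outposts in myelin sheaths, was at 185, 191 and 94.2 CPM in MOL5/6a and at 366, 431 and 152 CPM in the others, with ratios of -0.99, -1.18 and -0.69. Mapt, which encodes tau, had -0.72, -0.44 and -0.65, and Stmn1 had -0.67, -0.40 and -1.35. Stmn4, the member with most UMIs, was the exception with 0.35, 0.25 and 0.27. Of the genes of axoglial adhesion, 6 of 11 were lower and 2 higher against all others and 8 were lower and 1 higher against MOL5/6b, where 1414 of all 5031 genes were lower and 1171 higher in all 3 libraries. The paranodal and juxtaparanodal adhesion genes Nfasc and Cntn2 had -0.91, -0.99 and -1.24 and -0.95, -0.92 and -1.12, and Jam3, a junctional adhesion molecule, had 0.74, 0.41 and 0.65 against all others.

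Among single genes ranked in the same way, by the ratio nearest 0, Kctd2, an adaptor of ubiquitin ligases, was the lowest, at 8.23, 7.51 and 7.83 CPM against 22.7, 29.6 and 24.1 CPM. The potassium channel Kcna2 was at 15.7, 12.8 and 8.81 CPM against 35.9, 40.9 and 24.8 CPM, which gave -1.19, -1.68 and -1.49. The other 8 of the lowest 10 were Taf10, Tomm6, Tab2, Gsk3a, Smim11, Tshz1, Setd8 and Nav2, with ratios between -2.45 and -1.07. Kctd2 rests on 11, 10 and 32 UMIs in MOL5/6a. None of these 10 belonged to the ribosomal group, and their levels in MOL5/6a were low, between 5.99 and 42.8 CPM. Iron genes were split, with the iron carrier Trf at 0.62, 0.34 and 0.91 and the storage protein Fth1 at -0.46, -0.18 and -1.03. Of 12 lineage transcription factors, 8 were lower and 2 higher in all 3 libraries, with medians of -0.31, -0.33 and -0.34, beside 2258 lower of all 5842 genes. Myrf, which drives myelin genes, had -0.54, -0.80 and -0.41. Olig1 and Olig2 were the 2 that were higher, with 0.29, 0.17 and 0.22 and with 0.42, 0.31 and 0.21. Against MOL5/6b 6 of 12 of these factors were lower and 3 higher. Against MOL5/6d 6 of 10 were lower and 2 higher, with medians of -0.14, -0.02 and -0.28.

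**Figure D3:**
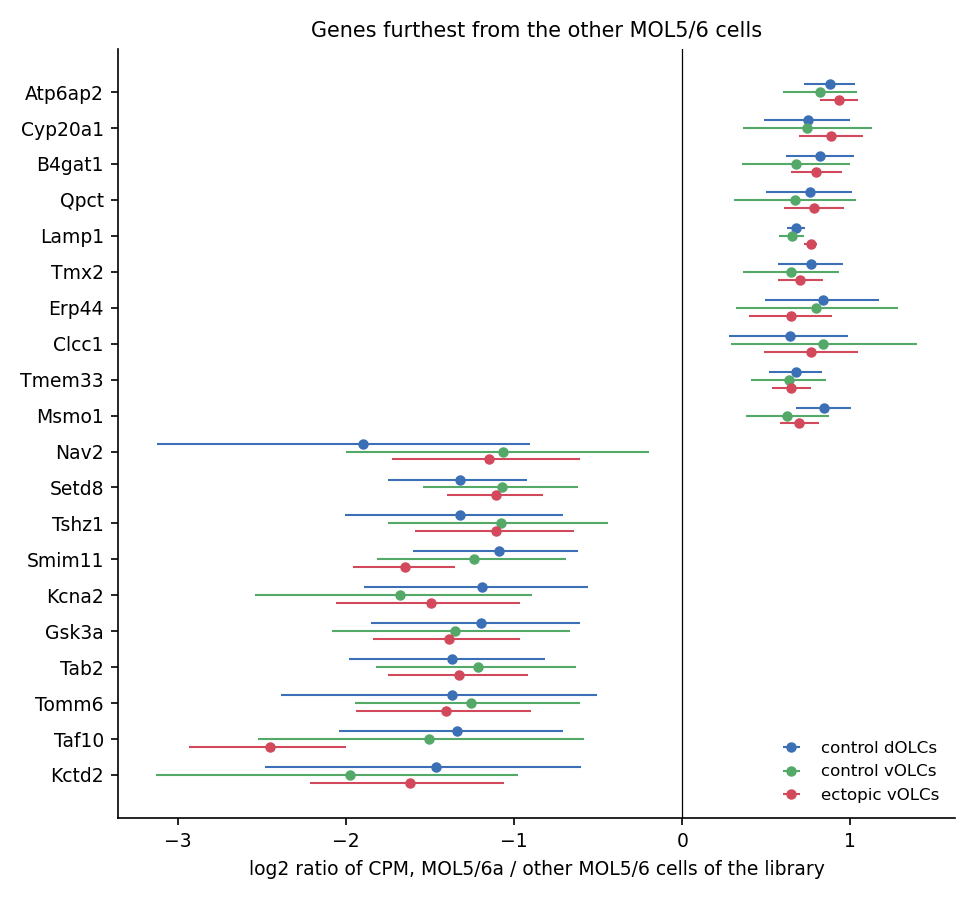
The 10 genes with the highest and the 10 with the lowest ratio of MOL5/6a to the other MOL5/6 cells of the same library (x axis, log2 ratio of CPM), by the ratio nearest 0 of the 3 libraries. Points are ratios and lines 95% exact intervals for counting error. The high genes lie below a ratio of 1 in each library, from 0.63 to 0.93, and the low genes between -2.45 and -1.07.

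Transcript length moved with the comparison of subclusters. Against MOL5/6b, genes in the longest of 4 equal groups by transcript length had a median ratio of -0.40, -0.38 and -0.37 and those in the shortest group 0.08, 0.12 and 0.12. Against MOL5/6d it was the shortest group that was lowest, with -0.37, -0.27 and -0.47 beside -0.08, -0.03 and -0.11 in the longest. MOL5/6a also held more UMIs per cell than MOL5/6b, whose medians were 2844, 3970.5 and 3059, and fewer than MOL5/6d with 6036, 7576 and 7160. The part of length and depth in the group differences was not tested. Against single subclusters, 0 of 5031 genes (0%) were at least 2-fold higher in all 3 libraries and 16 (0.318%) lower for MOL5/6b, 17 (0.417%) higher and 94 (2.31%) lower of 4077 for MOL5/6c, and 0 (0%) higher and 74 (1.9%) lower of 3897 for MOL5/6d. Some of these cells were few, with 42 ectopic cells in MOL5/6b and 53 and 35 control vOLCs in MOL5/6c and MOL5/6d.

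The libraries were then compared within MOL5/6a, which asks how ectopic cells differ from control cells of the same annotated state. Among genes past the filter, the ectopic vOLCs differed from both controls by more than 2-fold at few. The counts below depend strongly on the filter and the scaling, with alternatives given in the closing section. Against control dOLCs, 15 of 4556 genes (0.329%) were at least 2-fold higher and 33 (0.724%) at least 2-fold lower. Against control vOLCs, 15 of 5346 (0.281%) were higher and 177 (3.31%) lower. The median over all genes was -0.11 and -0.16, below 0, and scaling by trimmed means (TMM) moved it to 0.06 and 0.03 and the counts to 22 higher and 15 lower and to 28 higher and 93 lower. Of all genes, 2990 of 4556 were below 0 against control dOLCs and 3666 of 5346 against control vOLCs. Values below are given as CPM ratios, and medians and counts of lists are to be read against these. The same ectopic library entered both comparisons, so they are not independent.

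Tubb3, a beta-tubulin known mainly from neurons, had the highest ratio. It had 13, 11 and 410 UMIs, or 9.73, 8.26 and 100 CPM, and the ectopic library was 3.37 (2.58 to 4.29) above control dOLCs and 3.6 (2.75 to 4.62) above control vOLCs on the log2 scale. The 9 ectopic cells with most Tubb3 held 10.7% of its UMIs, so it was spread over many cells, and no cell had more than 7. The 7 neuronal markers were at 18.8 CPM in the same cells and at 24.0 and 11.3 CPM in the controls. In MOL5/6b, MOL5/6c and MOL5/6d the ratio to control dOLCs was 2.24, 3.22 and 3.32, where the value for MOL5/6b (interval 0.29 to 3.72) comes from 42 ectopic cells and was below the filter. Ratios of like size were thus present in MOL5/6c and MOL5/6d. Of the other 5 tubulins compared, Tuba1a, with most UMIs of them, had 0.14 and Tubb4b -0.19 against control dOLCs, well under that of Tubb3.

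Magi1, a scaffold protein of cell junctions, was at 38.2, 42.8 and 130 CPM, with ratios of 1.77 (1.35 to 2.21) and 1.61 (1.21 to 2.03). Npsr1, the neuropeptide S receptor, was at 31.4, 58.5 and 124 CPM, with ratios of 1.98 (1.53 to 2.47) and 1.09 (0.74 to 1.45). The control vOLCs lay between the other libraries for Npsr1 and near the control dOLCs for Magi1. Nap1l3, an X-linked gene of the nucleosome assembly protein family, was at 18.0, 12.8 and 38.4 CPM, with 1.10 (0.47 to 1.78) and 1.59 (0.86 to 2.41). Lpcat2, which makes phosphatidylcholine from its lyso form, was at 8.98, 12.0 and 27.9 CPM, with 1.63 (0.77 to 2.63) and 1.22 (0.45 to 2.07). These rest on 12 to 24 UMIs in each control, so their intervals are wide. Nap1l3 had a UMI in 6.91%, 5.49% and 11.2% of the cells, so it passed the filter only through the ectopic library, where it is high. Cdh2, which encodes N-cadherin, was at 17.2, 15.01 and 34.5 CPM. Its ratio to control dOLCs was 1.00 in MOL5/6a and -0.26, -0.35 and 0.10 in MOL5/6b, MOL5/6c and MOL5/6d, and this difference between subclusters was not tested. The other 4 of the 10 highest were DHRSX, Synpr, Ntrk2 and Agmo, with ratios between 0.75 and 1.43 against control dOLCs. Agmo, which cleaves ether lipids, was also higher in MOL5/6a than in the other MOL5/6 cells in each library, by 1.21, 0.84 and 1.63, although its UMIs were below the filter of that comparison.

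Arhgap15, a Rac-directed GTPase-activating protein, was below the filter on low values. It had 3, 5 and 88 UMIs, or 2.25, 3.75 and 21.5 CPM, which gave ratios of 3.26 (1.67 to 5.57) and 2.52 (1.24 to 4.18) to the dorsal and ventral controls. Polr2f, the neighbour of Sox10 on the chromosome and a subunit of RNA polymerases, was at 150, 254 and 280 CPM. It was 0.90 above control dOLCs in the ectopic vOLCs and 0.75 above them in the control vOLCs, so it was higher in both GFP+ libraries.

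Eya2, a transcriptional cofactor and phosphatase of the eyes absent family, was the lowest named gene without a near copy. It had 51, 68 and 8 UMIs, or 38.2, 51.0 and 1.96 CPM, with ratios of -4.29 (-5.57 to -3.20) and -4.70 (-5.97 to -3.65). The controls lay close together and the ectopic library far below them, and in MOL5/6d the ratio to control dOLCs was -5.94. Dlk2, a membrane protein related to the Notch ligands, was at 36.7, 30.0 and 5.14 CPM, with -2.84 (-3.65 to -2.07) and -2.55 (-3.38 to -1.75). Gm10260 had 63, 118 and 5 UMIs and ratios of -5.27 and -6.18. It is a near-identical copy of the ribosomal protein gene Rps18, whose own ratios were -0.06 and 0.01, and the counting can split reads between copies, so its value is uncertain.

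The other lower genes were closer to 2-fold. Hddc3, a hydrolase of the guanosine tetraphosphate family, was at 50.9, 58.5 and 17.6 CPM, with -1.53 and -1.73. Fam126a, whose human counterpart is mutated in a hypomyelinating leukodystrophy, was at 29.9, 32.3 and 11.5 CPM, with -1.38 and -1.49, and the apoptosis effector Bak1 at 29.9, 28.5 and 11.7 CPM, with -1.35 and -1.28. For Bak1 the ratio to control dOLCs was 0.24, 0.21 and -0.46 in MOL5/6b, MOL5/6c and MOL5/6d. Erdr1, Gm12166, PISD and Tnrc6c completed the 10 lowest, with ratios between -2.46 and -1.08. Tppp was lower by nearly 2-fold, with -0.97 (-1.21 to -0.74) and -1.02 (-1.25 to -0.78), from 247, 254 and 385 UMIs.

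The genes lie apart in the genome. On GRCm38 in the GENCODE annotation, Tubb3 is on chromosome 8 (123411424 to 123422015, + strand) and Lpcat2 on the same chromosome at 92855339 to 92919279, Eya2 on chromosome 2 (165595032 to 165771727, + strand), Magi1 on chromosome 6 (93675455 to 94283917, - strand), Npsr1 on chromosome 9 (24097996 to 24316398, + strand), Dlk2 on chromosome 17 (46297421 to 46303271, + strand) and Nap1l3 on chromosome X (122394565 to 122397401, - strand). All are annotated as protein-coding. UMIs were summed over whole genes, so no exon or untranslated region is told apart.

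**Figure D4:**
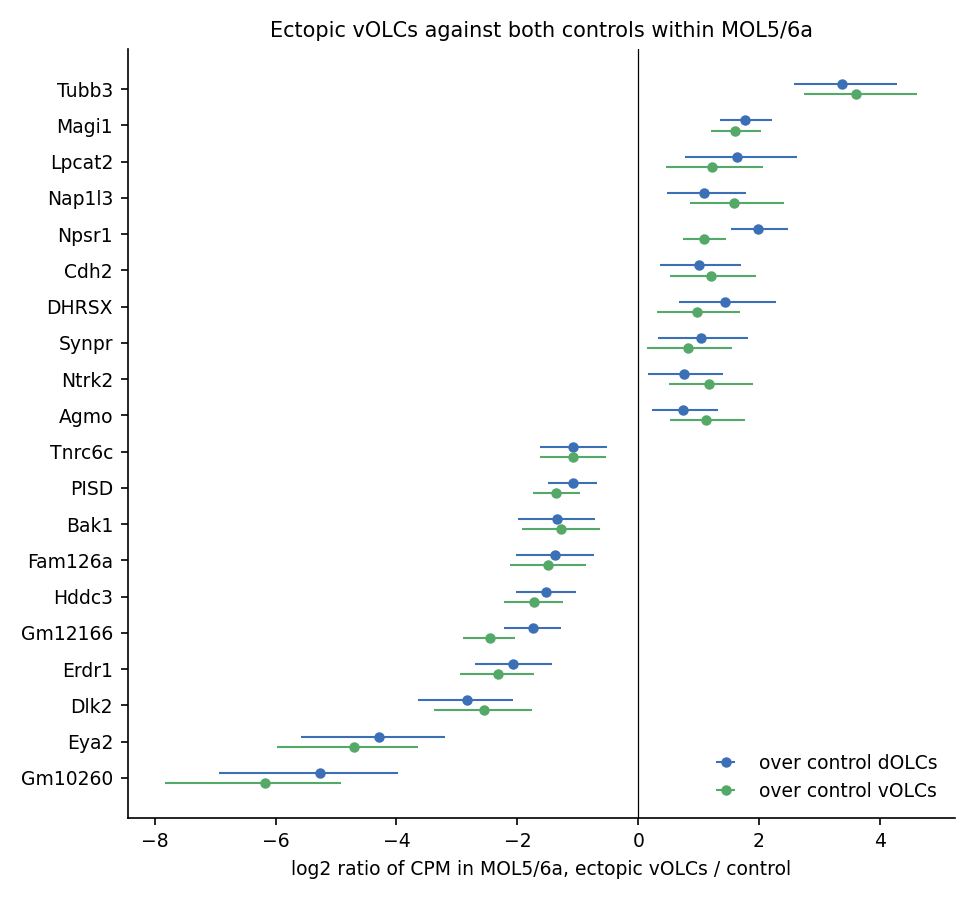
The 10 genes with the highest and the 10 with the lowest ratio of ectopic vOLCs to both controls within MOL5/6a (x axis, log2 ratio of CPM), by the ratio nearer 0. Points are ratios to control dOLCs and to control vOLCs, and lines are 95% exact intervals for counting error. Tubb3 lies above 3 against both controls, Eya2 and Gm10260 below -4, and the intervals of the 20 genes lie off 0.

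The 4 markers differed by less than 2-fold between the libraries. Il33 was 0.48 (0.38 to 0.57) above control dOLCs and 0.64 (0.54 to 0.74) above control vOLCs in the ectopic cells. Ptgds was 0.05 (0.03 to 0.06) above control dOLCs and -0.26 relative to control vOLCs, Car2 -0.04 and -0.28, and Grm3 -0.06 and -0.08. Ptgds and Car2 were both highest in the control vOLCs, by 0.31 and 0.24 over control dOLCs.

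Myelin protein genes were close to the controls. Of 13, 6 were above and 7 below control dOLCs, with a median of -0.05 beside -0.11 over all genes and a range from -0.33 for Tspan2 to 0.23 for Omg, and the median against control vOLCs was 0.02. Microtubule-associated proteins were below 0 for 11 of 11 against control dOLCs and for 8 of 11 against control vOLCs, with medians of -0.17 and -0.22. The second count is near the share over all genes. Tppp was the only 1 of them near 2-fold, and Mapt was at -0.07 and -0.11. Axoglial genes were below 0 for 10 of 11 in each comparison, with medians of -0.15 and -0.22 and Cntn2 at -0.44 (-0.59 to -0.28) and -0.36. These medians were close to those over all genes.

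Fatty acid genes lay further below, with 11 of 12 under 0 against control dOLCs and a median of -0.27. The desaturase Scd2 was at 2539, 2331 and 1826 CPM, with -0.48 (-0.53 to -0.42) and -0.35, and Acly, which supplies cytosolic acetyl-CoA, at 67.4, 54.8 and 43.3 CPM, with -0.64. Elovl7, a fatty acid elongase, was the exception with 0.35. The median against control vOLCs was -0.17 beside -0.16 over all genes, so the list did not stand apart there. Cholesterol genes were split, with 9 above and 8 below control dOLCs and a median of 0.02, and their regulator Srebf2 was at -0.73 (-1.10 to -0.34). Sphingolipid genes were split as well, with 6 above and 6 below and a median of 0.01. Among them Asah1, the acid ceramidase, was at 0.54 and Galc, the galactosylceramidase, at -0.60.

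Of the 18 plotted lists, mitochondrially encoded genes had the highest median in both comparisons of the ectopic cells. The 8 genes named in earlier accounts of the ectopic cells, Tubb3 among them, had higher medians of 1.10 and 1.09 over the 7 compared, but were chosen for their difference in these data. All 12 compared genes were above control dOLCs, with a median of 0.44, and 9 of 13 were above control vOLCs, with a median of 0.34, while the control vOLCs were at 0.02 relative to control dOLCs. mt-Nd2, a subunit of complex I, was at 3005, 3530 and 4858 CPM with 0.69 (0.64 to 0.74), and mt-Co3, of complex IV, at 14638, 13242 and 16561 CPM with 0.18. Cytoplasmic ribosomal proteins were lower for 64 of 77 genes against control dOLCs and for 69 of 77 against control vOLCs, with medians of -0.13 and -0.21 that were near those over all genes. Nuclear genes of oxidative phosphorylation were below 0 for 61 of 75, with a median of -0.10. The mitochondrial share was thus highest in the ectopic cells of MOL5/6a, as it was in each of the other 3 subclusters, and it is also a measure of cell quality on which the authors filtered. Its part in the other ratios was not tested.

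Lysosomal and ER genes, which were higher in MOL5/6a than in the other MOL5/6 cells, were then compared between libraries. Lysosomal genes were 9 above and 9 below control dOLCs, with a median of -0.01, and ER genes 10 above and 19 below, with -0.08, both near the values over all genes or above them. Lysosomal genes were lower in control vOLCs than in control dOLCs for 16 of 18, with a median of -0.20, beside 2396 of all 5162 genes and a median of 0.02, and their summed share of 0.811% was below the 0.911% and 0.919% of the other libraries. Lineage transcription factors had a median of -0.13, with 7 of 10 below 0 as over all genes, and Sox10, from which the reporter and DTA are driven, was at 396, 339 and 292 CPM with -0.44 (-0.59 to -0.29). Of the 4 antigen presentation genes compared, H2-K1, a class I heavy chain, was at 28.4, 44.3 and 60.7 CPM with 1.09 (0.60 to 1.63), while B2m, its light chain, was at 71.1, 86.3 and 51.9 CPM with -0.46. Ion channel and transporter genes were at -0.10 against control dOLCs and had the lowest median of the plotted lists against control vOLCs, at -0.39, although 7 of 10 below 0 is about the share over all genes. Hcn2, a channel opened by hyperpolarization, was at 518, 704 and 594 CPM, so the control vOLCs were highest.

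**Figure D5:**
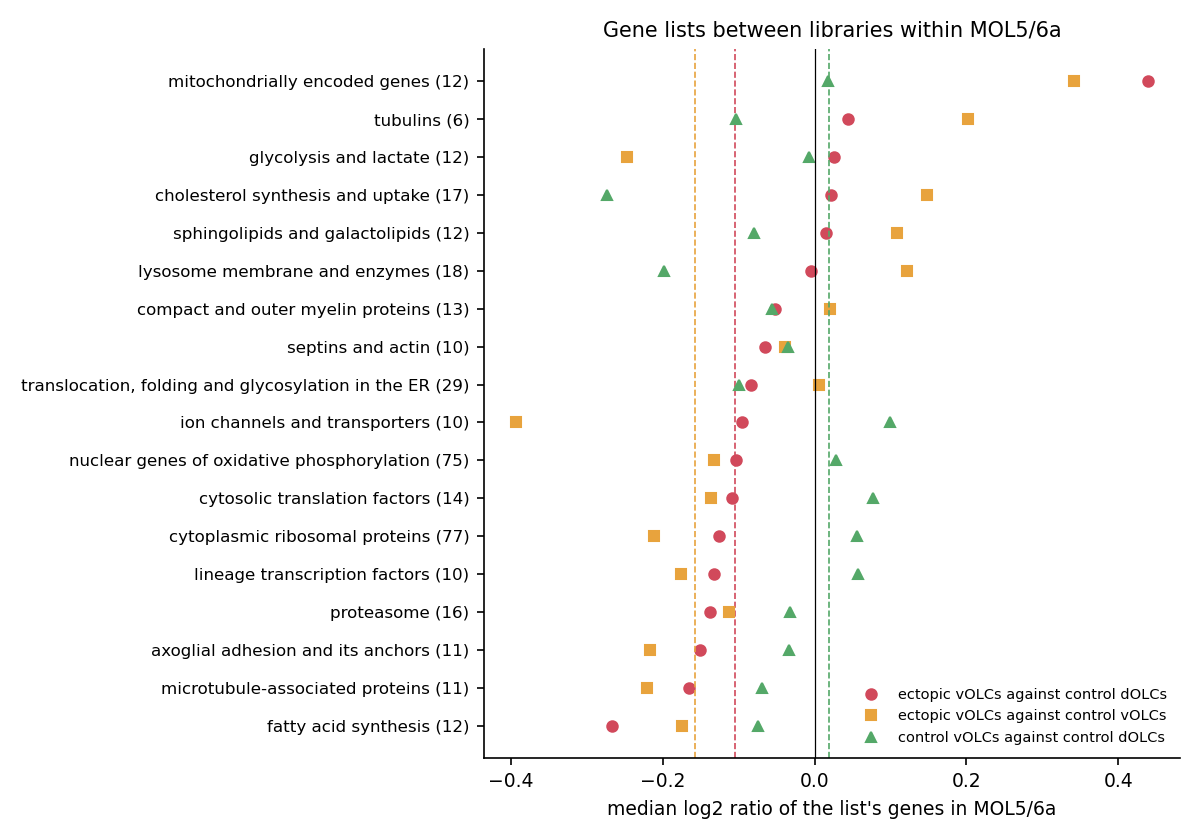
Median log2 ratio (x axis) of the compared genes of 18 gene lists (y axis, number of genes in the comparison of ectopic vOLCs with control dOLCs in brackets) within MOL5/6a for the 3 comparisons between libraries. Dashed lines mark the medians over all compared genes, at -0.11, -0.16 and 0.02. Mitochondrially encoded genes lie furthest to the right of their lines, at 0.44 and 0.34, and fatty acid synthesis is lowest against control dOLCs at -0.27.

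Control vOLCs were compared with control dOLCs, the GFP+ and TdTom+ cells of the same mice, where origin, sort and library cannot be told apart. Of 5162 genes, 86 (1.67%) were at least 2-fold higher and 14 (0.271%) at least 2-fold lower in control vOLCs, around a median of 0.02. Here too a gene could pass the filter through 1 library alone, so these counts cannot be set against each other. The summed level of the 173 genes typed as pseudogenes was 922 CPM in control dOLCs and 2106 CPM in control vOLCs. Sgms1, which makes sphingomyelin at the Golgi, was the highest gene that is not named as a pseudogene or predicted gene, at 7.49, 47.3 and 21.3 CPM with 2.66 (1.69 to 3.79). Among the highest 5 were also Rpl9-ps6, Rpl13-ps3, Gm4950 and Gm8797, with ratios between 2.45 and 2.79. Rpl9-ps6 was at 12.7, 87.8 and 16.9 CPM, so that it was high in control vOLCs alone. The lowest 5 were Bcan, Rnf216, Usp15, Uvrag and Stoml1, between -1.61 and -1.44. Bcan, a proteoglycan of the extracellular matrix, was at 34.4, 11.3 and 16.4 CPM, with -1.61 (-2.56 to -0.75), so both ventral libraries were below the dorsal one.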

How the data were processed

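The authors sorted OLCs by reporter, sequenced 3 droplet libraries and deposited raw UMI counts per gene and cell (27998 genes, 10081 barcodes) with their cell annotation. The submitters' processing notes name Cell Ranger 2.1.1, Seurat 3 and 4.0 and mm10, and the methods text another Cell Ranger version. The 4 other samples of the series, single nuclei at P0, were not analysed here. Cells kept by the authors (9291) and their cluster names were used as given, and no doublet was removed here. UMIs were summed per library and cluster and scaled to 1000000 (CPM). With 1 library per group no test was run. Ratios carry conditional exact binomial, levels exact Poisson and shares Clopper-Pearson intervals at 95%, for counting error only. Genes between libraries needed 50 UMIs in the compared libraries and a UMI in 10% of the cells of one, and genes between subclusters 50 UMIs over the compared cells in every library. "Called" means past 2-fold. Named genes were the 4 markers, the 10 highest and 10 lowest against both controls and against the other MOL5/6 cells, the 5 highest and 5 lowest between controls, for each of 37 lists the member with most UMIs and those with the highest and lowest ratio to control dOLCs, and Tubb3, Eya2, Tppp, Arhgap15, Npsr1, Nap1l3, Dlk2, Polr2f and Magi1, of which some are not reported here. Members and lists were chosen with earlier results of these data known. Transcript lengths and positions came from GENCODE M21 and promoter windows from RefSeq. Alternatives are given in the closing section. The steps were tested on simulated data. Tools were Python 3.11.15, numpy 2.4.6, scipy 1.17.1, pandas 2.3.3, matplotlib 3.10.9 and, for TMM factors of the summed counts, R 4.3.3 with edgeR 4.0.16.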

Additional observations from a re-analysis of the deposited data

Results flagged for a closer look

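For 5 of the named genes the ratio of ectopic vOLCs to control dOLCs had opposite signs in MOL5/6a and MOL5/6d, the 2 subclusters that hold most ectopic cells, with both intervals off 0. Each rests on 1 library per group, and the differences between subclusters were not tested. Hcn2, the hyperpolarization-activated channel, was at 0.20 in MOL5/6a and -0.37 in MOL5/6d. Tpt1 was at -0.22 in MOL5/6a and 0.19 in MOL5/6d. Opalin, a transmembrane protein of oligodendrocytes, was at -0.080 and 0.18. mt-Co3 was at 0.18 and -0.055, and Ptgds at 0.048 and -0.024, where both ratios are small and their intervals narrow because of the depth of these genes.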

How the results depend on the processing

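No paired analysis was possible because each group is 1 library, and for the same reason no replicate could be left out. No result past 2-fold reversed its direction in the 647 values of 70 named results, and 55 of these values came under 2-fold. Settings that change only the filter leave a ratio as it is, and scaling factors shift all ratios of a comparison alike by little. Such values could not reverse, and genes that failed an alternative filter were left out, so the lack of reversals says little. Of the counts and shares, 52 values stayed within the limits set and 46 moved. Most counts of genes moved with the filter, and some moved with the scaling. For control vOLCs against control dOLCs the counts stayed within the limits under scaling, at 83 higher and 15 lower with TMM factors. Against control dOLCs, the 33 genes 2-fold lower became 15 with TMM factors, 18 with median of ratios factors, 15 after centring in bins of transcript length, 8 with cells thinned to 1000 UMIs, 2 with at least 200 UMIs, 1284 with at least 1 UMI in each library and 259 with MOL5/6a and MOL5/6b summed, and the 15 higher became 3, 6 and 374 under thinning, 200 UMIs and 1 UMI. Against control vOLCs, the 177 lower became 93 with TMM, 98 with median of ratios, 95 with length bins, 43 thinned, 37 with 200 UMIs, 1478 with 1 UMI and 268 with both subclusters summed, and the 15 higher became 28, 27, 23, 5, 6 and 338 under the first 6 of these, and 23 with the total taken without ribosomal, mitochondrial and Malat1 UMIs. For control vOLCs against control dOLCs, the 86 higher became 20 thinned, 16 with 200 UMIs and 1010 with 1 UMI, and the 14 lower became 6, 0 and 530, and 3 with both subclusters summed. Thinning left 1383, 1444 and 1448 genes to compare, and the limit of 200 UMIs 3171, 3173 and 1842, so that fewer genes could pass. Against the other MOL5/6 cells, the 13 lower became 74 for MOL5/6d alone, 94 for MOL5/6c alone, 34 for the mean CPM of the 3 subclusters, 30 with at least 20 UMIs, 6 with TMM and 3 thinned, and the 0 higher became 17 for MOL5/6c alone. The share of MOL5/6a was 6.75%, 29.6% and 40.5% without OPCs and cycling OPCs and 8.82%, 42.2% and 48.9% of MOL5/6 cells. Among cells with at most 10% mitochondrial UMIs it was 6.34%, 28.2% and 29.6%, so the ventral libraries no longer stood apart, and the ectopic share was 37.0% without the 6% of cells with most UMIs. The comparisons with single subclusters MOL5/6b and MOL5/6c, the sum of MOL5/6a and MOL5/6b, the total without ribosomal, mitochondrial and Malat1 UMIs and the counts without pseudogenes were added after the data were seen.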

Other observations

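The 173 genes of the table that GENCODE types as pseudogenes, summed with no filter on UMIs, were at 922 (871 to 975), 2106 (2029 to 2186) and 733 (707 to 759) CPM in control dOLCs, control vOLCs and ectopic vOLCs of MOL5/6a, with exact Poisson intervals. Control vOLCs were thus the highest library. The sums were 999, 1901 and 763 CPM in MOL5/6b, 1363, 2777 and 1122 CPM in MOL5/6c and 1530, 2994 and 1254 CPM in MOL5/6d, in the same order of libraries. Counting can assign reads of a processed pseudogene and its parent to either, so single values are uncertain. Without the transcripts so typed, which leaves in Rpl9-ps6 as it is typed as protein coding, the genes at least 2-fold higher and lower were 73 and 14 for control vOLCs against control dOLCs and 15 and 161 for ectopic against control vOLCs.

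Pgk1, a glycolytic kinase with many processed copies, was at 24.7, 88.6 and 33.3 CPM in the order used above, so that it was high in control vOLCs alone, and the median of the 12 glycolysis genes between ectopic and control vOLCs was -0.25. Neat1, the long noncoding RNA of nuclear paraspeckles, was at 393, 425 and 224 CPM, with -0.81 (-0.97 to -0.65) and -0.92 (-1.08 to -0.77) in the ectopic cells of MOL5/6a, and at -0.97, -1.06 and -1.0 against control dOLCs in MOL5/6b, MOL5/6c and MOL5/6d. Malat1 was at 106635, 89148 and 124529 CPM and thus took a larger share of all UMIs in the ectopic cells. Enpp6, a marker of newly formed oligodendrocytes, was at 57.6, 40.5 and 25.9 CPM in MOL5/6a, with -1.15 (-1.59 to -0.71) and -0.64 (-1.13 to -0.14). Slc1a2, a glutamate transporter, was at 59.9, 80.3 and 100 CPM, with 0.74 (0.39 to 1.10) against control dOLCs. The part of other cell types in this value was not tested. Sgms1, high in control vOLCs, was at 7.49 CPM in control dOLCs of MOL5/6a and at 21.8 CPM in the other MOL5/6 cells of that library, a ratio of -1.54 that was -0.06 in control vOLCs and 0.00 in ectopic vOLCs.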
